A study of Mus musculus with 12 samples.

Results

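A run of 7 neighbouring genes on mouse chromosome 9 around Htr3a was described across 12 RNA sequencing libraries of brain, which the series describes as adult forebrain. In the order of the annotation the genes are Nnmt, Zbtb16, Gm32335, Htr3a, Htr3b, Usp28 and Zw10. All 7 had a row in the deposited table of 56748 genes and all 7 had enough counts to be tested, Htr3b and Gm32335 only through the knockout groups. They were chosen by name and position, as a run around Htr3a with flanks, after the difference between knockout and wildtype at this locus had been seen. Their values in that contrast are therefore given as a description, without p-values, and nothing is read from how many of them the test called.

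The libraries formed 4 groups of 3. They were a Notch conditional knockout exposed before birth to valproic acid, wildtype exposed in the same way, the knockout without exposure, and wildtype without exposure. The knockout is labelled htr3a Notch KO. The labels name neither the Notch gene removed nor what drove its deletion, the strain, or the dose and day of exposure. They do not say whether the knockout line carries added or altered DNA at the Htr3a locus, such as a driver transgene, and counts per gene cannot tell transcripts of such DNA from those of the native genes; this was not tested and applies to every knockout value of the 7 genes. Nothing in them ties a library to an animal of its own, and p-values therefore measure only the spread between libraries, which may be technical. Valproic acid treats epilepsy and inhibits histone deacetylases; rodents exposed to it before birth serve as a model of autism.

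Htr3a and Htr3b encode subunits of the 5-HT3 receptor, the serotonin receptor that is itself an ion channel and the fast, excitatory member of an otherwise G-protein-coupled family. The 5-HT3A subunit forms channels alone, whereas 5-HT3B reaches the cell surface only together with 5-HT3A and changes the conductance of the channel. In mouse cortex and hippocampus Htr3a marks interneurons born in the caudal ganglionic eminence, among them the Vip-expressing and neurogliaform cells. Zbtb16 encodes the zinc finger repressor PLZF, Usp28 a deubiquitinating enzyme that opposes the ubiquitin ligase Fbxw7, Zw10 a protein of the kinetochore and of vesicle transport, and Nnmt nicotinamide N-methyltransferase. Gm32335 is a predicted RNA gene on the strand opposite to Htr3a.

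Total counts were 16887885 to 24944681 per library, and genes encoded by mitochondrial DNA held 12.2% to 18.6% of them. Xist had 6 counts in exposed knockout replicate 3 and 12 in exposed wildtype replicate 3, against 5919 to 10767 in the other 10 libraries. The forebrain markers Slc17a7, of cortical excitatory neurons, and Ppp1r1b, of striatal neurons, were at 841 to 1220 and 274 to 592 CPM, the count per 10⁶ of TMM-scaled library size. Of 6 hindbrain genes, Hoxb5, Hoxb3 and Hoxc4 had 0 counts in every library. Per library, Hoxa5 had 0 to 1 counts, Slc6a5 0 to 8 and En2 5 to 27. In bulk tissue, fewer cells of a type and less RNA per cell cannot be told apart.

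The receptor subunit gene Htr3a (ENSMUSG00000032269) was higher in all 6 knockout libraries than in all 6 wildtype libraries. Without exposure it was at 9.41, 10.4 and 10.6 CPM in knockout, against 3.42, 4.91 and 4.52 CPM in wildtype. After exposure it was at 10.8, 10.3 and 9.93 CPM in knockout, against 5.18, 6.66 and 6.16 CPM in wildtype. The groups did not overlap in either pair, and the lowest knockout value of all lay above the highest wildtype value of all. The fitted fold was 2.38 (log2 1.25 ± 0.15 SE) without exposure and 1.72 (log2 0.79 ± 0.14 SE) with it.

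Htr3b (ENSMUSG00000008590) was read in the knockout and almost absent from wildtype. Without exposure the knockout libraries had 84, 106 and 60 counts, against 0, 0 and 0 counts in wildtype. After exposure the knockout libraries had 81, 88 and 112 counts, against 0, 0 and 1 in wildtype. Htr3b was thus at least 91.4-fold higher in unexposed knockout, taking a floor of 3 counts for the wildtype group as a whole. With exposure the ratio of summed counts was 316 (281 against 1 count, 95% counting interval 56.2 to 12500). These intervals and floors cover counting error only.

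Because Htr3a and Htr3b come from the same libraries, the share of Htr3b in their summed counts was taken as a measure of their RNA balance that does not depend on scaling. Subunit protein was not measured, and the share was not corrected for exon length. It was 29.8%, 29% and 33.1% in the 3 exposed knockout libraries and 29.6%, 31.5% and 25.3% in the 3 unexposed ones. Over the group it was 30.8% (95% Clopper-Pearson interval 27.8 to 33.9) with exposure and 29.2% (26.1 to 32.3) without. In wildtype it was 0.242% (0.00613 to 1.34; 1 of 413 counts) with exposure. Without exposure it was 0 of 278 counts, with a Clopper-Pearson upper bound of 1.32%. Wildtype therefore had Htr3a counts with almost no Htr3b beside them, and knockout had both in a ratio whose intervals overlapped between exposed and unexposed libraries.

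Gm32335 (ENSMUSG00000111570), the predicted gene on the opposite strand, followed the same division at a lower level. Without exposure it had 21, 28 and 17 counts in knockout, against 0, 0 and 0 in wildtype, at least 24.1-fold higher. With exposure it had 31, 17 and 32 counts in knockout, against 1, 1 and 2 in wildtype (ratio 22.5, 95% counting interval 8.44 to 84.4). In the GENCODE M21 models, drawn on the earlier build GRCm38, its exons hold 2948 bases, of which 0 are shared with exons of Htr3a and 244 (8.3%) lie inside the Htr3a gene body. Neither the strand setting nor the annotation release behind the counts is stated, so some reads of this pair may have been counted for the other gene. Of the summed counts of Htr3a and Gm32335, Gm32335 took 11.2% (9.01 to 13.8) in exposed knockout, against 0.962% (0.263 to 2.44) in exposed wildtype. It took 9.81% (7.67 to 12.3) in unexposed knockout, against 0 of 278 counts in unexposed wildtype.

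**Figure D1:**
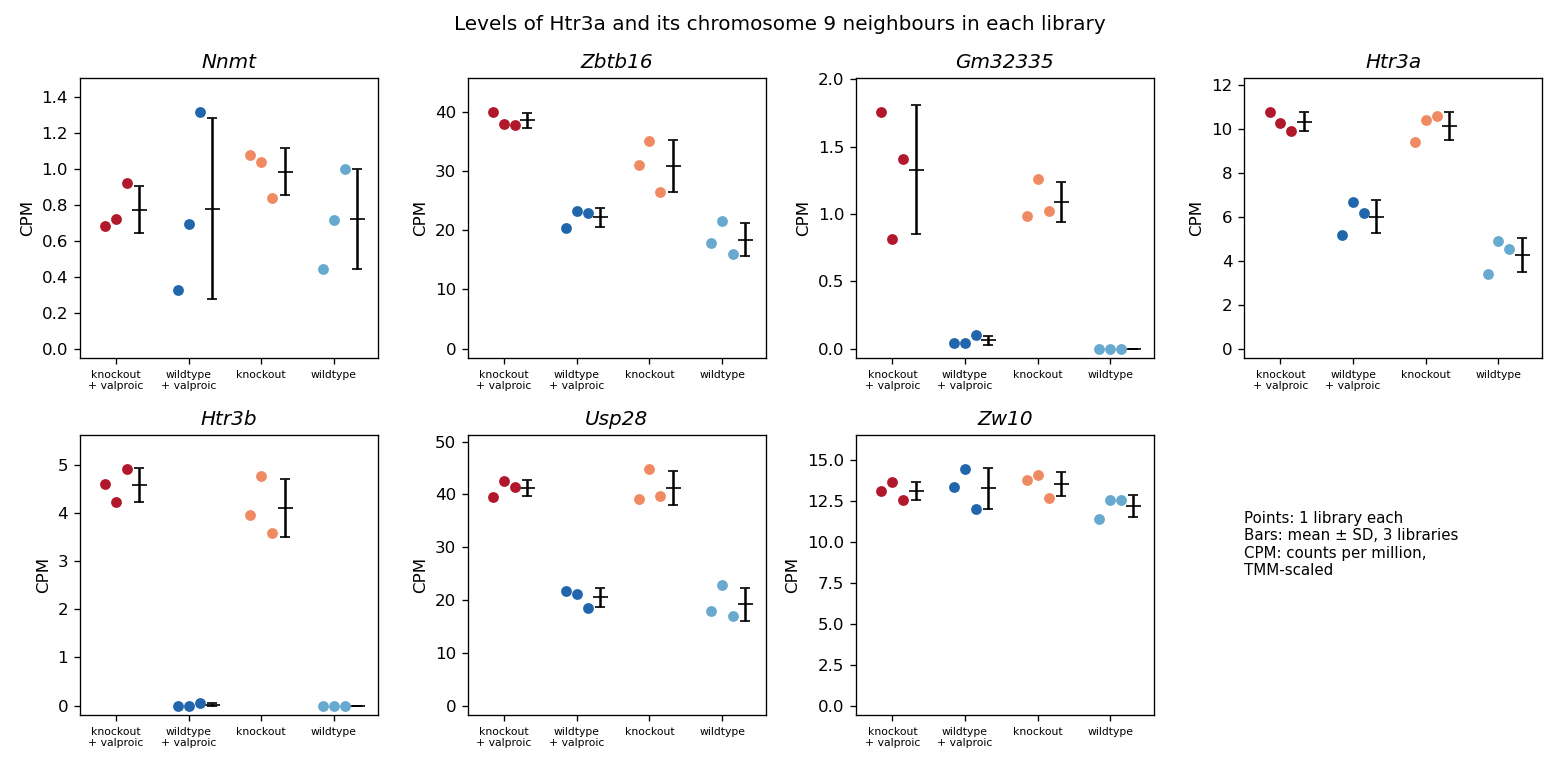
Levels of the 7 genes in CPM (vertical axes, linear, 0 included) in the 4 groups of 3 libraries; points are libraries and bars are mean ± SD. Htr3a, Htr3b, Gm32335, Usp28 and Zbtb16 were higher in every knockout library than in every wildtype library, whereas Nnmt and Zw10 overlapped between genotypes after exposure.

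The deubiquitinase gene Usp28 (ENSMUSG00000032267) lies next to Htr3b and was likewise apart between the genotypes. Without exposure it was at 39.1, 44.9 and 39.7 CPM in knockout, against 17.9, 22.8 and 16.9 CPM in wildtype. With exposure it was at 39.5, 42.6 and 41.5 CPM in knockout, against 21.8, 21.2 and 18.5 CPM in wildtype. No knockout library overlapped a wildtype library. The fitted folds were 2.16 (log2 1.11 ± 0.10 SE) without exposure and 2.01 (log2 1.0 ± 0.10 SE) with it.

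Zbtb16 (ENSMUSG00000066687), on the other side of Htr3a, was also apart between the genotypes. Without exposure it was at 31, 35.1 and 26.4 CPM in knockout, against 17.8, 21.5 and 15.9 CPM in wildtype. The fitted fold was 1.69 (log2 0.75 ± 0.11 SE). With exposure it was at 40, 37.9 and 37.7 CPM in knockout, against 20.3, 23.3 and 22.9 CPM in wildtype. There the fitted fold was 1.74 (log2 0.80 ± 0.10 SE). Knockout and wildtype were apart in both pairs, and exposed knockout lay above unexposed knockout in every library.

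The flanking genes did not share this pattern in both pairs. Nnmt (ENSMUSG00000032271), beyond Zbtb16, had 8 to 26 counts in any library and was at 0.836 to 1.08 CPM in unexposed knockout, against 0.442 to 0.999 CPM in unexposed wildtype. After exposure it was at 0.681 to 0.922 CPM in knockout, against 0.324 to 1.32 CPM in wildtype, and the groups overlapped in both pairs. The fitted Nnmt difference was log2 0.47 ± 0.42 SE without exposure and log2 0.03 ± 0.43 SE with it. The unexposed value is too imprecise to tell Nnmt from Zbtb16. Zw10 (ENSMUSG00000032264), beyond Usp28, was at 12.7 to 14.1 CPM in unexposed knockout, against 11.4 to 12.6 CPM in unexposed wildtype (log2 0.16 ± 0.11 SE). After exposure it was at 12.6 to 13.7 CPM in knockout, against 12 to 14.5 CPM in wildtype (log2 -0.02 ± 0.11 SE). Its unexposed groups were thus apart by a narrow margin and its exposed groups overlapped.

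Counted over the 7 genes, edgeR's quasi-likelihood test with Benjamini-Hochberg adjustment over 17995 genes called 5 higher in knockout without exposure and the same 5 with it, and called neither flank. Over all tested genes the percentage called higher was 0.0278% without exposure and 0.0389% with it. Every unexposed knockout library lay above every unexposed wildtype library for 6 of the 7 genes (3.58% of all tested genes), and likewise for 5 of 7 after exposure (6.96%). All 6 knockout libraries lay above all 6 wildtype libraries for 5 of 7, against 22 (0.122%) of all tested genes, these 5 included. Since the genes were chosen on this contrast, these counts only describe it. Htr3b and Gm32335 were among the tested genes only through their knockout counts. With exposure, Htr3a was no longer called without exposed wildtype replicate 1 or without any of the exposed knockout replicates (log2 0.69 to 0.82), and likewise without both libraries lacking Xist (log2 0.83).

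The region around the run was described from the other annotated genes between Cadm1 and Ncam1. They are the genes left outside a run chosen after the difference at this locus had been seen. A lack of calls among them is therefore a description and no independent test of how far the difference reaches. There were 24, of which 11 had enough counts to be tested; none of the other 13 reached more than 10 counts in a library. None of the 11 passed the test between knockout and wildtype in either pair (0 and 1 at an unadjusted p under 0.05 without and with exposure, against 3.13% and 7.44% of all tested genes). Their log2 fold changes ran from -0.42 to 0.22 without exposure (median -0.03, against 0 over all tested genes) and from -0.53 to 0.43 with it (median 0.07, against 0). DESeq2 and limma-voom also called 0 of 11 in both pairs.

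On the Nnmt side, the nearest tested genes were Gm5617, Rbm7, which encodes an RNA-binding protein of the nuclear exosome targeting complex, and the exonuclease gene Rexo2. Rbm7 was at 39.3 ± 3.06 CPM in unexposed knockout and 40.1 ± 0.784 CPM in unexposed wildtype (mean ± SD, n = 3 libraries each). On the Zw10 side, the nearest were the serine protease gene Tmprss5 and Drd2, the D2 dopamine receptor of striatal neurons. Drd2 was at 32.1 ± 10.2 CPM in unexposed knockout and 39.1 ± 2.68 CPM in unexposed wildtype (edgeR adjusted p = 1). Ncam1, the neural cell adhesion gene at the far end, was at 120 ± 5.62 CPM in unexposed knockout and 123 ± 6.2 CPM in unexposed wildtype.

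The genes separated in both pairs thus formed an unbroken run of tested genes from Zbtb16 to Usp28, with Nnmt and Zw10 as the first tested genes outside it. The edge at Nnmt was not resolved, since its few counts gave a wide SE. Zw10 was apart by a narrow margin without exposure. In GRCm38 the run from Zbtb16 to Usp28 spans 388.2 kb, of which the Zbtb16 gene body takes 181.9 kb. The part from Gm32335 to the end of Usp28 spans 146.1 kb. Usp28 ends 13.1 kb before Zw10 begins, and Nnmt lies 49.1 kb from Zbtb16. Counts per gene do not show whether all exons of the outermost genes took part.

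**Figure D2:**
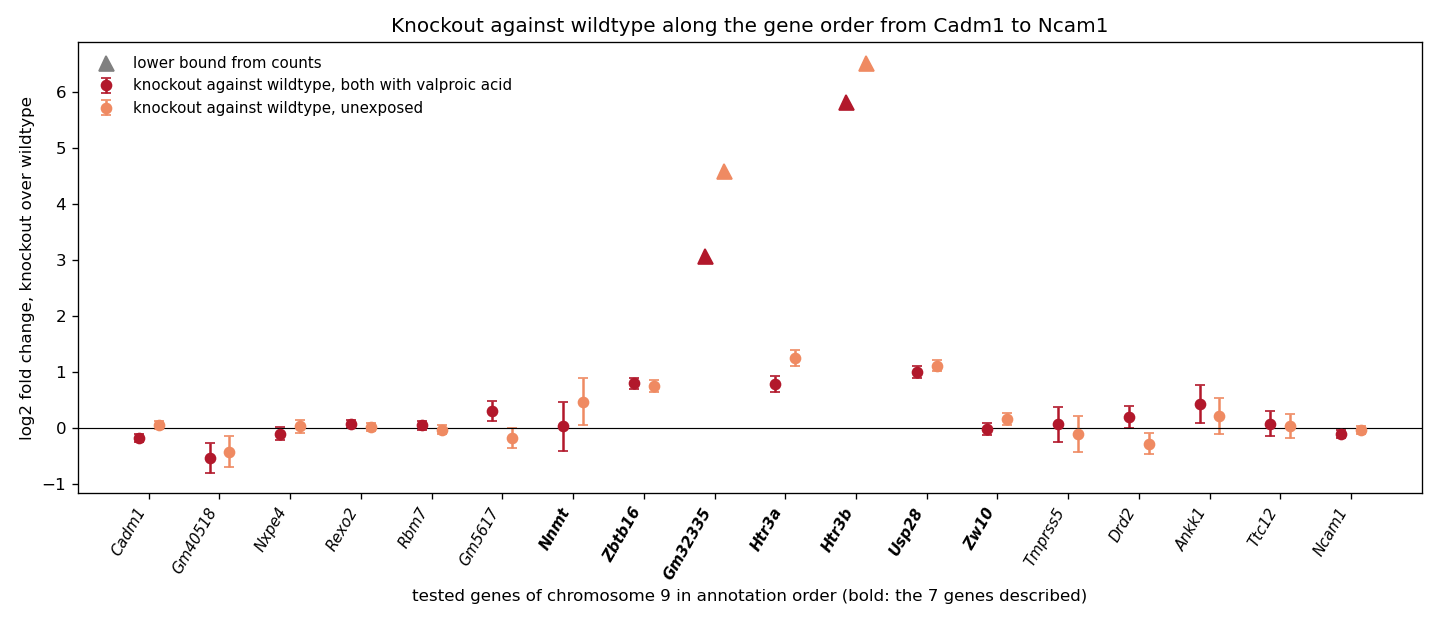
Log2 fold change of knockout over wildtype (vertical axis) for the 18 tested genes from Cadm1 to Ncam1 in annotation order (horizontal axis), with and without valproic acid; circles are fitted values ± SE, and triangles are lower bounds for Gm32335 and Htr3b, from the 3-count floor without exposure and from the lower end of the counting interval with it. Values stood above 0 from Zbtb16 to Usp28 in both pairs whereas those of the 11 tested genes outside the 7 lay between -0.53 and 0.43.

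To compare levels between the genes, CPM was divided by the length of their GENCODE M21 exons. Per kilobase, unexposed knockout had 7.07 ± 0.543 CPM of Usp28, 5.83 ± 0.824 of Zbtb16, 4.85 ± 0.295 of Htr3a, 1.7 ± 0.252 of Htr3b and 0.369 ± 0.0508 of Gm32335 (mean ± SD, n = 3). Unexposed wildtype had 3.29 ± 0.536 CPM of Usp28, 3.49 ± 0.536 of Zbtb16, 2.05 ± 0.371 of Htr3a and 0 of both Htr3b and Gm32335 per kilobase. In unexposed wildtype, Usp28 and Zbtb16 were therefore within their spread of each other, with Htr3a below both. Exposed wildtype had 4.2 ± 0.313 CPM of Zbtb16, 3.51 ± 0.301 of Usp28 and 2.88 ± 0.361 of Htr3a per kilobase, and there the Zbtb16 libraries (3.84 to 4.42) lay above the Usp28 libraries (3.17 to 3.74).

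The difference in level was then taken per kilobase, knockout minus wildtype. Without exposure it was 3.78 ± 0.44 CPM per kilobase (± SE) for Usp28, 2.8 ± 0.274 for Htr3a, 2.35 ± 0.567 for Zbtb16, 1.7 ± 0.145 for Htr3b and 0.369 ± 0.0293 for Gm32335. With exposure it was 3.55 ± 0.234 for Usp28, 3.1 ± 0.228 for Zbtb16, 2.09 ± 0.245 for Htr3a, 1.89 ± 0.0847 for Htr3b and 0.429 ± 0.0938 for Gm32335. Of the 5 separated genes, Usp28 had the highest mean difference and Gm32335 the lowest in both pairs, while Htr3a and Zbtb16 lay within about their SEs of each other without exposure. These differences were not tested between genes. Htr3b, with almost no count in wildtype, had a difference per length between those of Gm32335 and Htr3a.

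**Figure D3:**
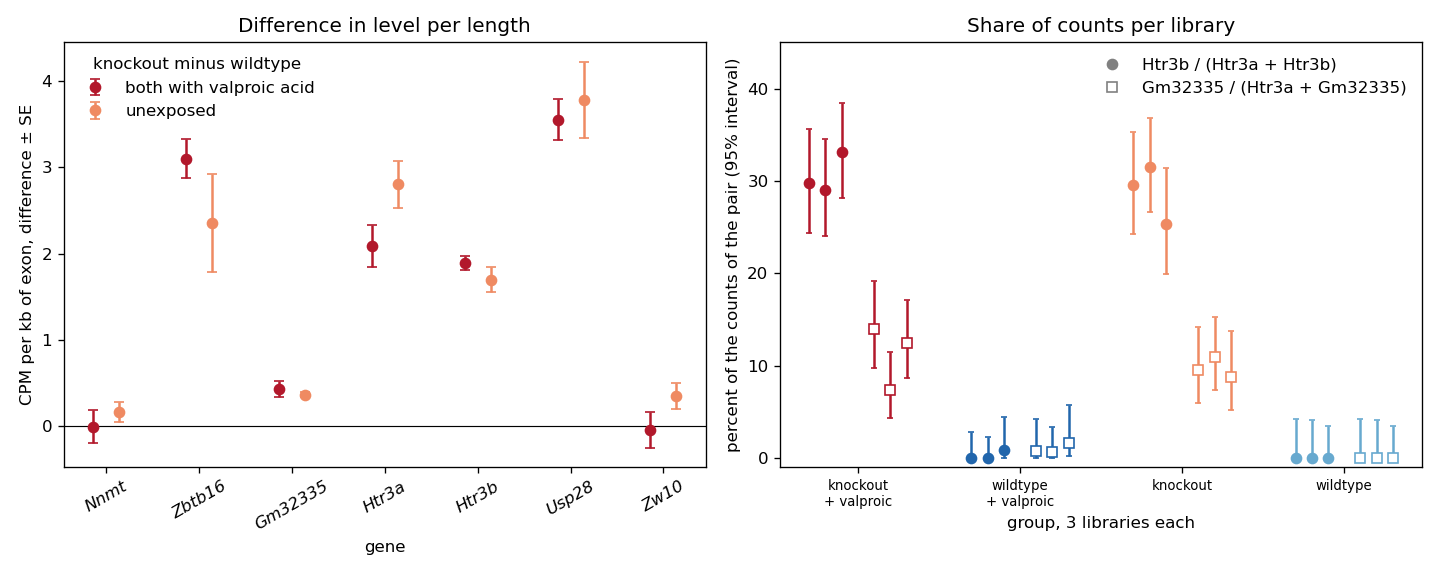
Left, difference in level between knockout and wildtype in CPM per kilobase of exon (± SE, 3 libraries against 3) for the 7 genes, with and without valproic acid. Right, percent of the summed counts with Htr3a that belong to Htr3b (filled circles) or Gm32335 (open squares) in each library, with 95% Clopper-Pearson intervals; Htr3b took 25.3% to 33.1% in knockout libraries and at most 0.82% in wildtype libraries.

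Since the knockout removes a Notch gene, the starts of the separated genes were searched for the core letters bound by Rbpj, the DNA-binding partner of Notch. RefSeq's promoter table (build GRCm38.p6) held 4 of the 7 genes: Gm32335, Htr3b, Usp28 and Zw10. The 250 bases before each start are shown 5′ to 3′ for the separated genes and, as the nearest gene outside the run, for Zw10. Capitals mark matches on either strand to the Rbpj core TGGGAA or to the GC box GGGCGG, which share no overlap in these windows. They lie at chr9:48895980-48896229 (plus strand), chr9:48964991-48965240 (minus strand), chr9:48985135-48985384 (plus strand) and chr9:49055331-49055580 (plus strand).
Gm32335: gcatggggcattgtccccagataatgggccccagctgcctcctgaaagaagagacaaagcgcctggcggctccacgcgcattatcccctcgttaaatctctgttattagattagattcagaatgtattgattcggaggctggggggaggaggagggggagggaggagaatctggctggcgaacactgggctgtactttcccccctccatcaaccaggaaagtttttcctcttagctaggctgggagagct
Htr3b: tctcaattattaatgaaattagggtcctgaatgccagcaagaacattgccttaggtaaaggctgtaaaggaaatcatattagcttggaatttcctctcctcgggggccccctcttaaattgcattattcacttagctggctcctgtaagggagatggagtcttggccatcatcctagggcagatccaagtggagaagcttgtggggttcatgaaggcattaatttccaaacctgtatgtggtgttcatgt
Usp28: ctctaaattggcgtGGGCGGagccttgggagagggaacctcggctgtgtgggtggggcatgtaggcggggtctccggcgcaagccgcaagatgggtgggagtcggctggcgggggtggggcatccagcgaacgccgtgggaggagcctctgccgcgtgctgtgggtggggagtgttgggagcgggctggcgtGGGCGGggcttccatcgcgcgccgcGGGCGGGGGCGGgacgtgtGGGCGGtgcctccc
Zw10: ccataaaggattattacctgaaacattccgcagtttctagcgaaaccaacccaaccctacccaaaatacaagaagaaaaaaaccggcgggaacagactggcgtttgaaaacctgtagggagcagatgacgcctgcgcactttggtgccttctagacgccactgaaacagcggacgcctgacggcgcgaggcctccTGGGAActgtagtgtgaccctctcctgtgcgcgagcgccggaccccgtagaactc
The Rbpj core was found 0 times before Gm32335, Htr3b and Usp28 and 1 time before Zw10, and 21.6% of 32851 promoter windows of this length hold it. The GC box was found 5 times before Usp28 and 0 times before the other 3, against 32.7% of all windows with at least 1. CG pairs numbered 26 before Usp28, 18 before Zw10, 7 before Gm32335 and 1 before Htr3b, with a median of 6 over all windows. A match describes letters only.

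Whether valproic acid moved the genes was tested next. The genes were not chosen on these contrasts, but those within a genotype share libraries with the known difference between the genotypes. The interaction is itself the difference of the 2 genotype contrasts. P-values of the 7 genes in these contrasts may therefore carry some of the choice. The average over both genotypes does not involve the genotype difference. None of the 7 passed edgeR's quasi-likelihood test in either genotype alone. In wildtype 0 of 7 passed (0.895% of all tested genes were called), with 3 at an unadjusted p under 0.05, as 14.2% of all tested genes were. In knockout 0 of 7 passed (0.0556% called), with 1 at an unadjusted p under 0.05, as 14.9% of all tested genes were. DESeq2 and limma-voom called 0 of 7 in each genotype as well.

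In wildtype, Htr3a stood at 6 ± 0.753 CPM with exposure and 4.28 ± 0.772 CPM without it (mean ± SD, n = 3 libraries each), with every exposed library above every unexposed one, as for 9.84% of all tested genes. The log2 fold change was 0.50 ± 0.15 SE (edgeR adjusted p = 0.111), outside the threshold of 0.05. In knockout, Htr3a was at 10.4 ± 0.46 CPM with exposure and 10.1 ± 0.615 CPM without it (log2 0.03 ± 0.14 SE, edgeR adjusted p = 0.942). The interaction, the genotype difference with exposure minus that without, was -0.46 ± 0.21 SE on the log2 scale (edgeR adjusted p = 0.833). It did not pass, so a difference between the genotypes in their response was not shown.

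Zbtb16 was higher after valproic acid averaged over both genotypes (log2 0.30 ± 0.07 SE, 1.23-fold, edgeR adjusted p = 0.0207). The estimate was similar in knockout, at 38.5 ± 1.28 CPM with exposure and 30.8 ± 4.35 CPM without (log2 0.32 ± 0.10 SE, adjusted p = 0.157), with every exposed library above every unexposed one, as for 9.88% of all tested genes. In wildtype it was at 22.2 ± 1.65 CPM with exposure and 18.4 ± 2.83 CPM without (log2 0.27 ± 0.11 SE, adjusted p = 0.23), and the interaction was 0.04 ± 0.15 SE (adjusted p = 0.988). The call over both genotypes was lost without exposed knockout replicate 1 (adjusted p = 0.0545), exposed wildtype replicate 3 (0.0529), knockout replicate 3 (0.0659) or wildtype replicate 3 (0.0755), and without both libraries lacking Xist (0.0928). Over both genotypes 5.99% of all tested genes were called, so 1 call among 7 genes is not a result about the group. The choroid plexus marker sum was at 2540 to 3050 CPM in exposed and 1770 to 1920 CPM in unexposed knockout, and at 1310 to 2590 CPM in exposed and 1280 to 1990 CPM in unexposed wildtype; its part in the result was not tested.

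Usp28 overlapped between exposed and unexposed libraries in both genotypes: it was at 41.2 ± 1.59 CPM with and 41.2 ± 3.16 CPM without exposure in knockout (adjusted p = 0.994), and at 20.5 ± 1.75 CPM with and 19.2 ± 3.13 CPM without in wildtype (log2 0.10 ± 0.10 SE, adjusted p = 0.704). Htr3b had 281 counts with and 250 without exposure in knockout (log2 0.15 ± 0.22 SE, adjusted p = 0.793). Gm32335 had 80 counts with and 66 without exposure in knockout (log2 0.27 ± 0.38 SE, adjusted p = 0.786). In wildtype Gm32335 had 4 counts with and 0 without exposure (edgeR adjusted p = 0.282), too few for a fold to be read. Nnmt and Zw10 did not pass in either genotype (log2 -0.34 to 0.13, adjusted p of 0.631 to 0.959).

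No interaction passed among the 7 genes or among all tested genes (0% called) by edgeR, DESeq2 or limma-voom. At an unadjusted p under 0.05 edgeR had 2 of the 7 genes, Htr3a and Gm32335, and 1075 (5.97%) of all tested genes; DESeq2 and limma-voom each had 1 of the 7. The fitted interaction of Gm32335 rests on 0 to 2 counts in each wildtype library and is not given as a fold.

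**Figure D4:**
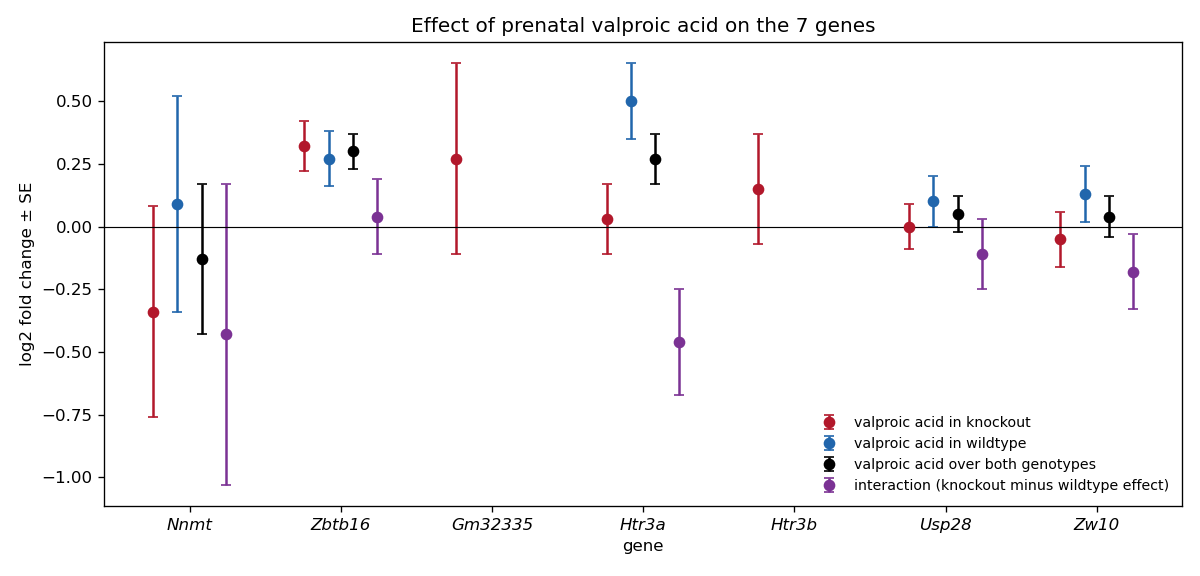
Log2 fold change ± SE (vertical axis) for valproic acid in knockout, in wildtype and over both genotypes, and for the interaction, for each of the 7 genes (horizontal axis). For Gm32335 and Htr3b only the knockout effect is drawn, since wildtype had 0 to 2 counts per library. The Zbtb16 effect over both genotypes (0.30) was the only one of those drawn to pass the adjusted test.

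Other genes that act with the 7 were examined by list: the serotonin system and 5-HT3 receptor assembly, receptor channels related to Htr3a, caudal interneurons, and known partners of Zbtb16, Usp28, Zw10 and Nnmt. Of 82 tested genes in these lists, 0 passed between knockout and wildtype in either pair by edgeR, and 0 passed for valproic acid in either genotype. By DESeq2 and limma-voom none passed between knockout and wildtype either. Among the 18 tested genes of the serotonin system, which include other serotonin receptors and the synthesis enzymes but not the transporter gene Slc6a4 (0 to 2 counts per library, not tested), the median log2 fold change between knockout and wildtype was 0.01 in both pairs (0 over all tested genes), with 1 and 2 genes at an unadjusted p under 0.05 without and with exposure. For this and the other lists, the share of all tested genes at that p was 3.13% without exposure and 7.44% with it. The 9 tested nicotinic and glycine receptor genes, channels of the same superfamily as Htr3a, had a median of 0 without exposure and -0.11 with it, with 1 gene at an unadjusted p under 0.05 in each pair.

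Genes of the interneurons that Htr3a marks were not called between the genotypes. Of 18 caudal interneuron genes, 0 passed in either pair, with 0 and 1 at an unadjusted p under 0.05 without and with exposure, and log2 fold changes from -0.30 to 0.17 without exposure (median 0.01) and from -0.23 to 0.37 with it (median 0). The summed level of the 8 markers Vip, Ndnf, Sncg, Lamp5, Adarb2, Prox1, Npas1 and Nr2f2 was 182 to 227 CPM in unexposed knockout and 184 to 197 CPM in unexposed wildtype. After exposure it was 180 to 216 CPM in knockout and 182 to 231 CPM in wildtype. The marker sums overlapped between genotypes in both pairs. Lamp5 alone was at 89.8 to 136 CPM over the libraries, so the sum largely follows that gene. Whether the number of these cells differed was not tested.

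The partner lists of the other genes had medians close to that of all tested genes. Without exposure the median log2 fold change was 0.01 for the 10 genes around Zbtb16, which include the corepressors Ncor1 and Sin3a, and -0.04 for the 9 around Usp28, which include Fbxw7 and Notch1. It was 0.11 for the 8 partners of Zw10 in the kinetochore and in vesicle transport and -0.05 for the 10 genes of nicotinamide metabolism. With exposure the medians of these lists were -0.01, -0.08, 0.03 and -0.01 in the same order. In these 4 lists 0 genes had an unadjusted p under 0.05 without exposure and 3 with it.

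Over both genotypes, 6 of the 82 genes were lower after valproic acid and none was higher, against 3.87% lower and 2.12% higher over all tested genes. They were the glycine receptor subunits Glra2 (log2 -0.39 ± 0.07 SE, edgeR adjusted p = 0.00491) and Glrb (log2 -0.20, 0.0234), and the cannabinoid receptor gene Cnr1 of the caudal interneuron list (log2 -0.22, 0.0153). The others were Nampt, which makes the precursor of NAD from nicotinamide (log2 -0.21, 0.0132), the checkpoint kinase gene Chek2 (log2 -0.64, 0.0452) and the serotonin receptor gene Htr1d (log2 -0.71, 0.0471). Of these, Glra2 alone passed without both libraries lacking Xist. Glra2, Cnr1 and Nampt passed whichever single library was left out. Glrb was lost without exposed knockout replicate 1 or 3, exposed wildtype replicate 3, knockout replicate 3 or wildtype replicate 2 or 3 (adjusted p of 0.0507 to 0.0634), Chek2 in 9 of the 12 fits that each left out 1 library (0.0556 to 0.108) and Htr1d in 10 of them (0.0502 to 0.12). With all libraries, Chek2 was also lost by DESeq2 (adjusted p = 0.0512), by limma-voom (0.0503) and by edgeR with no filter (0.0629). Htr1d was also lost by limma-voom (adjusted p = 0.0652). Of the 11 tested neighbours, Rbm7 passed (log2 -0.22 ± 0.06 SE, adjusted p = 0.0203), but not without exposed wildtype replicate 2 (0.057), knockout replicate 3 (0.0531) or wildtype replicate 3 (0.0537).

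Summed levels of markers of other tissues were compared by their ranges. In the exposed pair those of retina and pineal and of blood did not overlap between the genotypes, and those of choroid plexus and meninges did. The summed level of 6 choroid plexus markers was 2540 to 3050 CPM in exposed knockout and 1310 to 2590 CPM in exposed wildtype, and that of 3 retina and pineal markers was 1.54 to 3.69 CPM and 0.364 to 0.654 CPM in the same groups. Without exposure, choroid plexus markers were at 1770 to 1920 CPM in knockout and 1280 to 1990 CPM in wildtype, and retina and pineal markers at 0.27 to 0.376 CPM and 0.165 to 0.434 CPM. Blood markers, 5 in number, were at 155 to 206 CPM in exposed knockout and 100 to 143 CPM in exposed wildtype, and at 127 to 313 CPM in unexposed knockout and 162 to 241 CPM in unexposed wildtype. The 5 meningeal markers were at 52.4 to 70.5 CPM in exposed knockout, 51.2 to 66.7 CPM in exposed wildtype, 46 to 56 CPM in unexposed knockout and 45.3 to 55.8 CPM in unexposed wildtype. The part of these signals in the exposed difference was not tested. In the unexposed pair all 4 sums overlapped. Serotonin neuron markers, at 0.615 to 2.16 CPM in sum, and hindbrain markers, at 0.286 to 1.43 CPM, were low in all groups.

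Among 15298 other tested genes averaging 1 CPM or more, the profiles most like that of Htr3a over the 12 libraries were looked up by the root mean square difference of log2 CPM, each gene centred on its own mean. A gene with the same value in every library would differ from Htr3a by 0.55. Usp28 differed by 0.21 and Zbtb16 by 0.23, closer than any of the 15298; as the genes were chosen for a shared difference between the genotypes, this closeness restates that choice. The 5 nearest others were 2610203C22Rik (0.33), Bmx, a tyrosine kinase gene (0.34), Ttc21a (0.34), C920021L13Rik (0.35) and Gm2694 (0.35). The nearest to Usp28 were 2610203C22Rik (0.32), Ltc4s, which encodes leukotriene C4 synthase (0.33), Dmrta2 (0.34), Bvht (0.36) and an unnamed gene (0.37). Zw10 differed from Htr3a by 0.51, Nnmt by 0.56, Gm32335 by 1.23 and Htr3b by 2.23, all but Zw10 farther than a constant profile. The measure is not scaled to the size of a change. Gm32335 and Htr3b lie far by it although, like Htr3a, they were higher in every knockout library than in every wildtype library.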

How the data were processed

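RNA sequencing counts of 12 libraries were used. Per the labels' protocols, total RNA from an RNeasy kit was cleared of rRNA with Ribo-Zero before NEB Next Ultra library construction. HISAT2 and GRCm39 are named in the submitters' processing notes; no source used here gives the counting program, annotation release or strand setting. The authors deposited raw counts per Ensembl gene without normalisation. Gene names and order came from GENCODE M21 and promoters from RefSeq, both on GRCm38, so coordinates and distances are those of that build and not of the counts' build.

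Of 56748 genes, 17995 were kept by filterByExpr, scaled by TMM and fitted with a mean per group over all 12 libraries by edgeR 4.0.16 (robust quasi-likelihood test, two-sided, with Benjamini-Hochberg adjustment at 0.05 across the whole tested table); SE was taken as the log2 fold change over the root of F. DESeq2 1.42.0, limma 3.58.1 (voom), R 4.3.3, Python 3.11.15, pandas 2.3.3, scipy 1.17.1 and matplotlib 3.10.9 were also used. Count ratios carry 95% exact conditional intervals. The fit was tested on simulated data. The genes, lists and settings were chosen with earlier results of these data known. Named were the 7 genes, tested neighbours that the text needs, listed genes that passed, and the 5 nearest profiles.

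Labels repeat replicate numbers over the groups. Deviations of same-numbered libraries correlated across genes in knockout and wildtype without exposure (r of 0.122 to 0.174 over 3 pairs, against -0.126 to 0 for other pairs). In the other comparisons r was -0.122 to 0.093. The main fit nevertheless left out any pairing, also between unexposed knockout and wildtype. A separate fit used the replicate number as a block over all libraries, the exposed ones included.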

Additional observations from a re-analysis of the deposited data

How the results depend on the processing

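Across 10 other settings (9 for the interaction and for both genotypes together) and 12 fits that each left out 1 library, the 5 calls between unexposed knockout and wildtype were kept in number, and 0 of 7 genes passed for valproic acid in either genotype or for the interaction. After exposure 4 to 5 were called between knockout and wildtype. As the genes were chosen on the difference between the genotypes, these call counts only describe the fits. The same holds for the calls with a replicate block given below. Over both genotypes, Zbtb16 gave 1 call, 0 without both libraries lacking Xist, and 0 to 1 with 1 library left out. Fitted folds of Htr3b and Gm32335 depend on the prior count and the tool and are not used.

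Neighbours between Cadm1 and Ncam1 gave 1 call instead of 0 for valproic acid in wildtype (Drd2, lower) with no filter, limma-voom or only the libraries compared, and 0 to 1 with 1 library left out. Over both genotypes they gave 2 instead of 1 with no filter, DESeq2 or limma-voom, and 0 to 2 with 1 library left out. Listed partner genes gave 2 calls instead of 0 between exposed knockout and wildtype with no filter (0 to 1 with 1 library left out). For valproic acid in wildtype they gave 1 instead of 0 with no filter or DESeq2 (0 to 1). In knockout they gave 3 instead of 0 with no filter or DESeq2 and 1 without both libraries lacking Xist (0 to 2). Over both genotypes they gave 11 instead of 6 with no filter and 1 without both libraries lacking Xist (3 to 7). The cause was not tested.

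Over all genes, no filter gave 15 calls instead of 7 between unexposed knockout and wildtype and only the libraries compared gave 11. Between exposed knockout and wildtype it was 60 with no filter, 25 with DESeq2, 29 without both libraries lacking Xist and 86 without exposed wildtype replicate 3, instead of 9. Valproic acid gave 161 calls in wildtype (14 to 512 over all settings), 10 in knockout (2 to 391) and 1078 over both genotypes (298 to 1453); the interaction gave 0 (0 to 5). With the replicate number as a block, 5 of 7 genes were called between unexposed knockout and wildtype, 5 of 7 after exposure, 1 over both genotypes and 0 elsewhere; over all genes the block gave 6 instead of 10 calls for valproic acid in knockout and changed no call of the 7 genes. At 0 to 2 counts per wildtype library, depth limits Htr3b and Gm32335.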

Other observations

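Tph1, the serotonin synthesis enzyme of the pineal gland and gut, was chosen after its values were seen. It averaged 1.75 CPM in exposed knockout, 0.482 CPM in exposed wildtype, 0.401 CPM in unexposed knockout and 0.472 CPM in unexposed wildtype (exposed knockout over exposed wildtype log2 1.85 ± 0.42 SE, edgeR adjusted p = 0.167). It passed in that comparison with no filter (adjusted p = 0.00664) and without exposed knockout replicate 3 (0.0462). Against unexposed knockout, exposed knockout had log2 2.11 ± 0.44 SE (edgeR adjusted p = 0.0593), past the threshold with no filter (0.000658) and with DESeq2 (0.0165). Tph2, the enzyme of brain serotonin neurons, averaged 1.41 CPM in exposed knockout and 1.46 CPM in exposed wildtype (log2 -0.08 ± 0.34 SE, adjusted p = 0.986).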
